A study of Mus musculus with 8 samples.

Results

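Keratins are the intermediate filament proteins of epithelial cells, and this account covers every protein-coding gene of the family in the count table, from Krt1 to Krt90. The members were taken by name and biotype alone: a symbol made of Krt, a number and at most 1 further letter. This gave 53 genes of 31894 with an identifier. They were compared between E-cadLO and E-cadHI tumor cells, which were sorted by fluorescence-activated cell sorting (FACS) from breast cancer brain metastases (BCBMs) of 4 mice, numbered 57, 58, 67 and 70 in the labels. Each mouse gave 1 bulk mRNA library of each population, so that 8 libraries, 4 per group, were compared. The hosts were adult female FVB mice, labelled wild type. Both populations carried the same alleles. The tumor cells arose in mammary glands of PyMT E-cad-mCFP mice, in which the polyoma middle-T antigen is driven by the mouse mammary tumor virus promoter and E-cadherin is fused to the fluorescent protein mCFP. They were enriched by serial transplantation into brains, grown as organoids and injected intracranially. E-cadHI cells had high and E-cadLO cells low or no mCFP, and the purity of the sort was assessed by the study on the mCFP-positive cells only.

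A keratin filament is built from pairs of an acidic type I and a basic type II keratin, so that both types are needed in a cell. Simple epithelia such as the luminal layer of the mammary gland use Krt8 (type II) with Krt18 and Krt19 (type I). Basal cells of stratified epithelia and myoepithelial cells use Krt5 with Krt14. Krt6, Krt16 and Krt17 are known for their induction in wounded or hyperproliferative skin, and a large set of hair keratins builds the hair shaft and its inner sheath.

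In the mouse genome (GRCm38), 26 of the 27 type I genes lie in a cluster on chromosome 11 (99232761 to 100269871). The 26 type II genes lie on chromosome 15 (101349571 to 102004342), with the type I gene Krt18 beside them (102028216 to 102032026). By known role, 6 of the 53 genes are simple keratins, 3 basal, 4 stress-associated and 14 suprabasal or otherwise of stratified epithelia. Another 23 are hair keratins (9 of the sheath and 14 of the shaft), and 3 were left without a class. Each of the 53 had at least 1 count in some library. Only 12 had enough counts for the test over all genes: 5 simple (Krt7, Krt8, Krt18, Krt19, Krt23), 1 basal (Krt14), 2 stress-associated (Krt16, Krt17), 3 of stratified epithelia (Krt42, Krt79, Krt80) and Krt222. No hair keratin was tested.

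Total counts ranged from 9102781 to 15769200 per library, at which 3 counts, the floor used here, correspond to 0.190 to 0.330 CPM (counts scaled to library size). The epithelial identity of the libraries was checked with 15 epithelial genes, which summed to 3619 to 4641 CPM in E-cadHI and 1756 to 4111 CPM in E-cadLO libraries. Without the mouse in the fit, each of the 15 had a log2 fold change below 0 (median -0.38), and none passed the test. With the mouse in the fit Cldn4, named after its values were seen, was at 0.35 and the others stayed below 0. Cldn4 had log2 ratios within a mouse of -2.71, 1.01, 1.54 and 0.87 in mice 57, 58, 67 and 70. The summed level of the 15 had log2 ratios of -1.40, 0.18, -0.42 and -0.59 in these mice. Epcam was the 1 of the 15 wholly lower in E-cadLO libraries, as were 4.2% of all genes, and was named after its values were seen. Its mean was 1266 CPM in E-cadHI and 750 CPM in E-cadLO cells. Cdh1, which encodes the sorted protein E-cadherin, was at 111 CPM ± 15.9 (SD, n = 4) in E-cadHI and 98.9 CPM ± 55.6 in E-cadLO cells (adjusted p = 0.809, edgeR). Markers of brain cells were present in every library, and 20 microglial genes summed to 78.9 to 515 CPM in E-cadHI and 380 to 1671 CPM in E-cadLO libraries. Between the populations no gene of the 13598 tested reached an adjusted p under 0.05 with edgeR's quasi-likelihood test, in either direction (0.0%), and 8.16% were higher and 5.81% lower in E-cadLO cells at an unadjusted p under 0.05. In the fit that holds the mouse as replicate block, 99 genes (0.728%) were called higher and 0 (0.0%) lower, and 12.3% were higher and 7.33% lower at an unadjusted p under 0.05.

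The tumor cells of both populations expressed mainly simple keratins, at levels among the highest of any gene. Per transcript length, in TPM (length-scaled transcript shares), the simple class made up 97.9% ± 0.255 of all keratin transcripts in E-cadHI and 96.3% ± 1.13 in E-cadLO cells (SD, n = 4). Krt18, the main type I partner, ranked 5th to 17th among all genes by TPM. Krt8, its type II partner, ranked 11th to 26th. Krt19, a type I keratin of luminal and ductal cells, ranked 35th to 128th. In bulk libraries, more or fewer cells that express a gene and more or less of its RNA per cell cannot be told apart.

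Krt18 stood at 6548, 4380, 7194 and 5700 TPM in the E-cadHI cells of mice 57, 58, 67 and 70 and at 5954, 5083, 13649.8 and 5478 TPM in their E-cadLO cells. The E-cadLO library of mouse 67 was above all others and the remaining 7 were intermixed. Krt8 stood at 4343, 3259, 4659 and 3202 TPM in E-cadHI and at 3709, 3697, 6675 and 3009 TPM in E-cadLO cells. It was thus also highest in the E-cadLO cells of mouse 67 and lowest in those of mouse 70. On the CPM scale, the log2 fold changes between the populations were 0.28 (SE 0.34) for Krt18 and 0.09 (SE 0.28) for Krt8, with adjusted p = 0.696 and 0.885 (edgeR). Without mouse 67 both were below 0 (-0.08 and -0.11). In both genes the ratio was above 0 in mice 58 and 67 and below 0 in mice 57 and 70.

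Krt19 stood at 1509, 1106, 2052 and 1496 TPM in E-cadHI and at 755, 1164, 1942 and 1191 TPM in E-cadLO cells of mice 57, 58, 67 and 70. Its log2 fold change of -0.30 (SE 0.33, adjusted p = 0.662, edgeR) rested most on mouse 57, whose log2 ratio was -1.43. Krt7, a type II keratin of ducts and glands, was less abundant, with 80.0 to 103 TPM in E-cadHI and 91.6 to 235 TPM in E-cadLO cells. It was higher in E-cadLO cells in 3 of 4 mice, with a log2 fold change of 0.68 (SE 0.31) that did not pass (adjusted p = 0.36, edgeR). Among these 4, the order by TPM was Krt18, Krt8, Krt19, Krt7 in each library.

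Krt23, a type I keratin found in simple epithelia, had the ratio that varied most between mice among the 12 tested keratins (SD 1.86 on the log2 scale). It had 51, 81, 20 and 31 counts in the E-cadHI libraries of mice 57, 58, 67 and 70 and 0, 15, 0 and 108 counts in their E-cadLO libraries. It was thus lower in E-cadLO cells in 3 mice and higher in mouse 70. The fitted log2 fold change was -0.58 (SE 1.38) without the block and -2.45 (SE 1.43) with it, and neither passed (adjusted p = 0.851 and 0.364, edgeR). Krt20, the remaining simple keratin and a marker of intestinal cells, had at most 4 counts in any library.

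**Figure D1:**
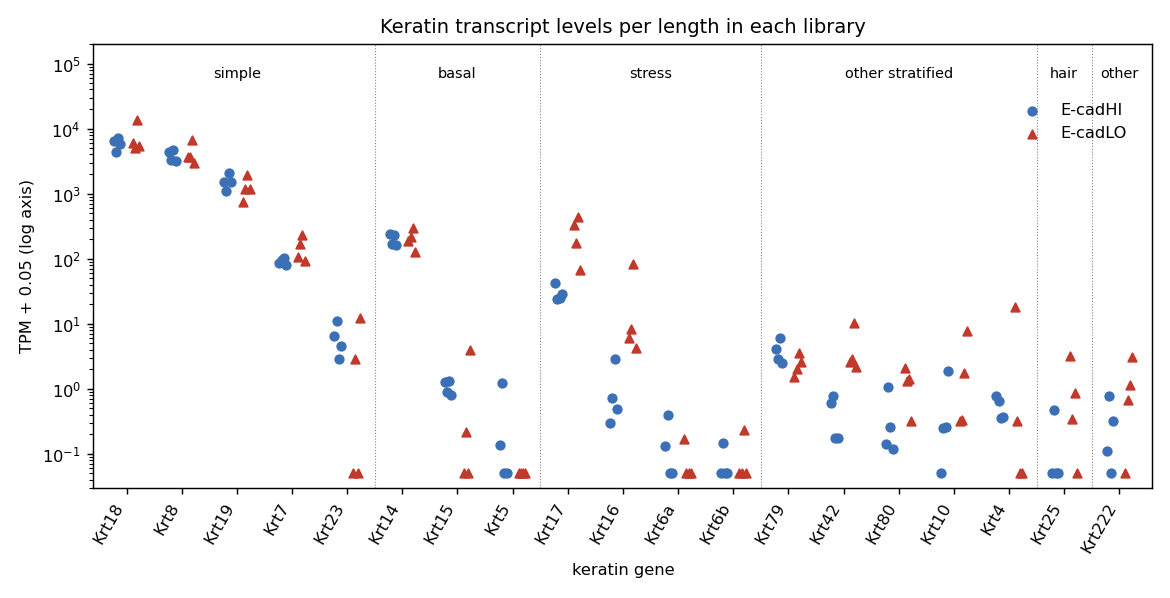
The vertical log axis gives TPM plus 0.05 for 19 keratins, with 1 point per library (blue circles E-cadHI, red triangles E-cadLO), ordered by class along the horizontal axis. Krt18, Krt8 and Krt19 lie between 755 and 13649.8 TPM in both populations, whereas all 4 E-cadLO points of Krt17, Krt16 and Krt42 lie above all 4 E-cadHI points.

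Of the basal pair, the type I member Krt14 was expressed in every library, whereas its type II partner Krt5 was at or near 0. Krt14 stood at 241, 171, 230 and 160 TPM in the E-cadHI cells of mice 57, 58, 67 and 70 and at 187, 218, 292 and 128 TPM in their E-cadLO cells. The groups overlapped fully, and the log2 fold change was -0.01 (SE 0.25, adjusted p = 0.99, edgeR), with a ratio above 0 in 2 mice and below 0 in the other 2. Krt5 had 1, 12, 0 and 0 counts in the E-cadHI libraries and 0 counts in all 4 E-cadLO libraries, where the floor of 3 counts allows up to 0.190 to 0.330 CPM per library. Krt15, a type I keratin of basal and hair bulge cells, had 6 to 11 counts in E-cadHI libraries, and 0, 1, 0 and 40 counts in the E-cadLO libraries of mice 57, 58, 67 and 70. Neither Krt5 nor Krt15 was tested.

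The stress-associated type I keratins Krt16 and Krt17 were the 2 called higher in E-cadLO cells once the mouse was in the edgeR fit. In the E-cadHI cells of mice 57, 58, 67 and 70, Krt17 stood at 23.1, 13.6, 13.1 and 17.3 normalized CPM, and in their E-cadLO cells at 133, 109, 230 and 41.9 CPM. All 4 E-cadLO libraries were above all 4 E-cadHI libraries, with mouse 67 highest and mouse 70 lowest among them. The log2 ratios within a mouse were 2.50, 2.96, 4.08 and 1.25, and the mean levels of 16.8 CPM ± 4.64 and 129 CPM ± 78.0 (SD, n = 4) differed 7.66-fold. The fitted log2 fold change was 2.94 (SE 0.47), with adjusted p = 0.172 without the block, and 2.74 (SE 0.43), with adjusted p = 0.0427, with the replicate block (edgeR). Krt17 was therefore called higher in E-cadLO cells with the mouse in the fit and not without it. Without a filter on low counts it also passed without the block (adjusted p = 0.00797, edgeR), where 0.0764% of genes were called higher.

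Krt16 was scarce in E-cadHI cells, with 2, 5, 20 and 3 counts (0.139, 0.383, 1.48 and 0.263 CPM) in mice 57, 58, 67 and 70. In E-cadLO cells it had 33, 44, 659 and 38 counts (2.44, 5.10, 44.2 and 2.65 CPM). The groups did not overlap, and mouse 67 was highest in both, far above the other E-cadLO libraries. The log2 ratios within a mouse were 2.20, 2.67, 4.50 and 2.05 on CPM plus 0.5. The fitted log2 fold change was 4.56 (SE 1.20, adjusted p = 0.262) without the block and 4.10 (SE 0.46, adjusted p = 0.0239) with the replicate block (edgeR). The 2 keratins called higher with the block, of 12 tested, stand beside the 0.728% of all genes called so, and none of the 12 was called lower. Krt16 was among the 12 only through its E-cadLO counts, so that this comparison is partly set by the filter on low counts.

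Krt42, a type I gene whose human counterpart is a pseudogene, had 5, 6, 1 and 1 counts in the E-cadHI libraries of mice 57, 58, 67 and 70 and 16, 17, 90 and 21 counts in their E-cadLO libraries. The groups did not overlap, and mouse 67 was again far above the other E-cadLO libraries, at 6.04 CPM against 1.19 to 1.97 CPM. Its log2 fold change was 3.40 (SE 0.83, adjusted p = 0.253) without the block and 3.22 (SE 0.88, adjusted p = 0.145) with it (edgeR), so that it did not pass in either. It passed only with DESeq2, without the block (adjusted p = 0.00775) and with it (adjusted p = 0.0123). DESeq2 called 2.64% of genes higher and 0.294% lower without the block, and 7.19% and 1.51% with it. Krt16, Krt17 and Krt42 were the 3 tested keratins with E-cadLO wholly above E-cadHI libraries, where 3.9% of all genes were. No keratin was wholly below, where 4.2% of all genes were. Krt16 and Krt42 passed the filter on low counts only through their E-cadLO libraries, so that their place in this comparison is partly set by the filter.

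The calls of Krt16 and Krt17 depended on which mice were in the fit. With the replicate block and without mouse 67, the log2 fold changes were 3.68 and 2.29 and neither passed (adjusted p = 0.310 and 0.277, edgeR). Neither passed without mouse 70 either, when both had adjusted p = 0.126, and without mouse 58 Krt16 passed (adjusted p = 0.0449) and Krt17 did not (adjusted p = 0.103). Without mouse 57 both passed (adjusted p = 0.0033 and 0.00945). The direction was the same in every fit. For a single gene, the exact two-sided sign-flip test over 4 mice cannot give a p below 0.125, which is the value for Krt16, Krt17, Krt42 and Krt80.

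**Figure D2:**
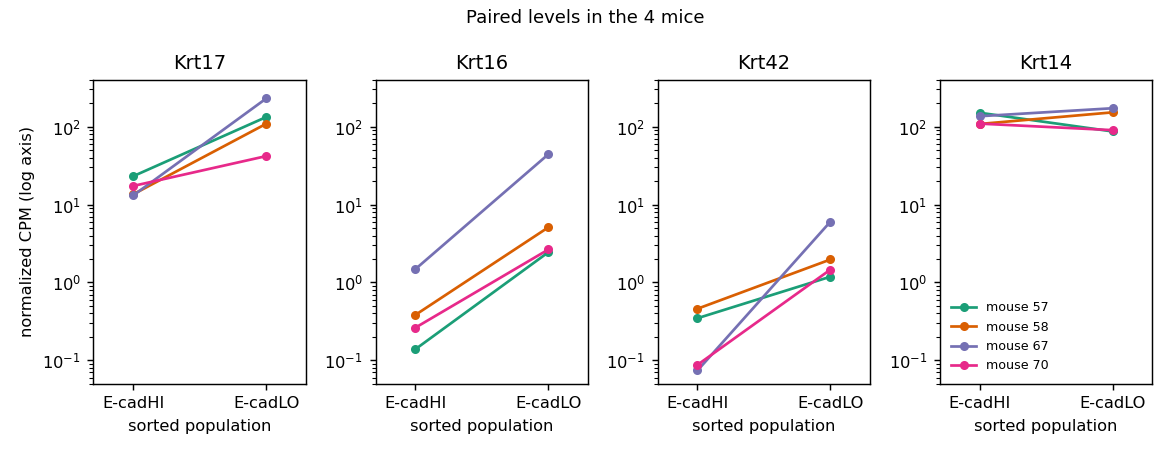
Each panel gives the normalized CPM of 1 keratin on a log axis, with a line joining the E-cadHI and E-cadLO libraries of the same mouse. All 4 lines go up for Krt17, Krt16 and Krt42, most steeply in mouse 67, whereas for Krt14 they go up in 2 mice and down in 2.

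With this difference the rank of Krt17 among type I keratins changed. In E-cadHI cells its TPM was below that of Krt14 in all 4 mice (24.3 to 41.9 against 160 to 241). In E-cadLO cells Krt17 stood at 325 and 442 TPM in mice 57 and 67, above Krt14 at 187 and 292 TPM. In mice 58 and 70 it stayed below, at 177 and 67.5 TPM against 218 and 128 TPM. By TPM, Krt17 ranked between 3609th and 4946th of all genes in E-cadHI libraries and between 267th and 2277th in E-cadLO libraries. The stress-associated class, which was mostly Krt17, went from 0.270% ± 0.0554 of keratin transcripts in E-cadHI to 1.93% ± 0.954 in E-cadLO cells (SD, n = 4). In the E-cadLO library of mouse 67, Krt17 made up 442 and Krt16 84.2 of the 527 TPM of this class.

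The type II keratins known to pair with Krt16 and Krt17 stayed near the floor in both populations. Krt6a had at most 4 counts in an E-cadHI and 1 in an E-cadLO library, and Krt6b at most 1 and 2. Much of the sequence of Krt6a and Krt6b also occurs in other genes (shares below), so that these low counts are uncertain. Krt75, a type II keratin of the hair follicle, had 0 to 5 counts in any library. Of all type II keratins, Krt8 was the most abundant by TPM in each library, and the sum of type I over type II TPM was 1.69 to 2.37 across the 8 libraries. In mouse 67 this ratio was 1.99 in E-cadHI and 2.37 in E-cadLO cells. In mice 57, 58 and 70 the populations were close, at 1.88 and 1.88, 1.69 and 1.72, and 2.25 and 2.22.

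Krt16, Krt17 and Krt42 are direct neighbours at the end of the chromosome 11 cluster (Krt16 at 100246091 to 100248902, Krt17 at 100256217 to 100261029 and Krt42 at 100262882 to 100269871, all on the minus strand, GRCm38). Their next neighbours within the cluster are Krt14, 38543 bases away, then Krt9 and Krt19. Krt14 and Krt19 had log2 fold changes near 0, and Krt9, a keratin of palm and sole skin, had at most 2 counts in any library.

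**Figure D3:**
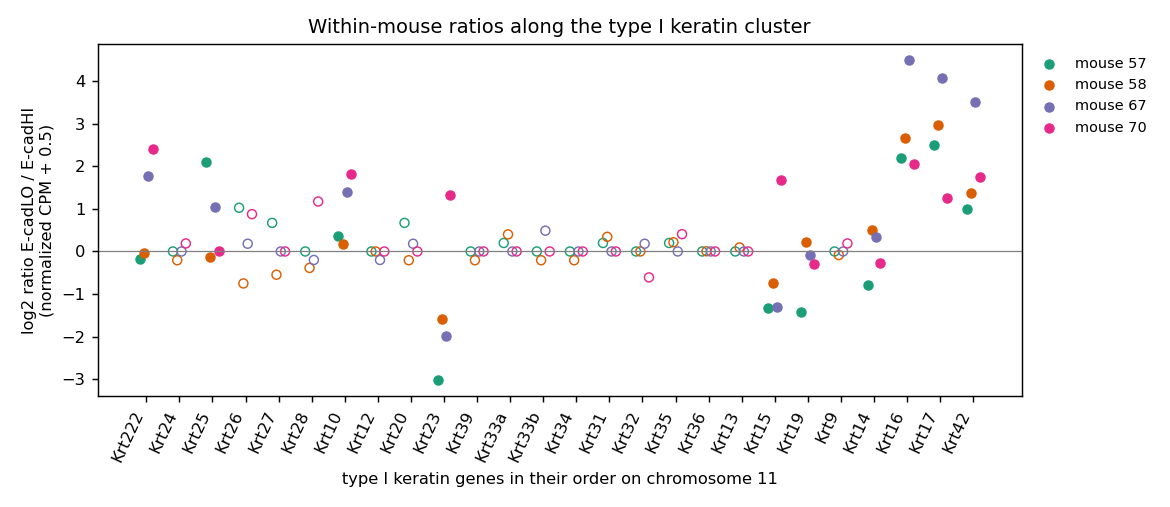
The vertical axis gives the log2 ratio of E-cadLO to E-cadHI on CPM plus 0.5 in each mouse, for the 26 type I keratin genes in their order on chromosome 11, with open circles for genes under 10 counts in every library. The last 3 genes, Krt16, Krt17 and Krt42, are above 0 in all 4 mice, with mean ratios of 2.85, 2.70 and 1.90.

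Since neighbouring type I keratins are similar in sequence, the sharing of reads between them was examined. Over aligned coding bases, Krt14 was 86.5% identical to Krt16, 84.1% to Krt17 and 82.6% to Krt42. The longest identical run of Krt14 and Krt16 was 134 bases, at coding bases 306 to 439 of Krt14. That of Krt14 and Krt17 was shorter, 71 bases at coding bases 1216 to 1286 of Krt14. The 120-base stretch shown, at coding bases 1145 to 1264 of Krt14, holds only part of this run. It is the first stretch of this length, without gaps in these genes, in which Krt17 differed from Krt14 at the fewest bases. It lies within coding exon sequence, in exon 6 of 8 of each gene, on the minus strand of chromosome 11 of GRCm38 (transcripts of GENCODE M21): at 100204136 to 100204255 in Krt14, 100246638 to 100246757 in Krt16, 100257461 to 100257580 in Krt17 and 100264506 to 100264625 in Krt42. Sequences are given 5′ to 3′ in the direction of the transcript, and capitals mark the bases that differ from Krt14.
Krt14: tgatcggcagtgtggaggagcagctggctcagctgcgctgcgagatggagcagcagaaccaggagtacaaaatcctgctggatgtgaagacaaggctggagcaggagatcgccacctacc
Krt16: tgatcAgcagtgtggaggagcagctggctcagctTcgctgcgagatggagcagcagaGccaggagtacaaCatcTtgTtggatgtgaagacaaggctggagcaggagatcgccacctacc
Krt17: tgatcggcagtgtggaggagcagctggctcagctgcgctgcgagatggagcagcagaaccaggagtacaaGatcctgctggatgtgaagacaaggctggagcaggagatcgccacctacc
Krt42: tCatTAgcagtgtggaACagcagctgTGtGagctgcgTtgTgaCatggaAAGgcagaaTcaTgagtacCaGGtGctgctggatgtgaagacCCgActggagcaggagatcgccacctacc
Here Krt17 differed from Krt14 at 1 base, Krt16 at 6 and Krt42 at 23.

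Over the whole transcripts such overlap was small for Krt17 and larger for Krt16. Of the 65-base windows of Krt17 transcripts, 0.874% occurred in another gene, always Krt14, and of those of Krt42 none did. For Krt16 the share was 31.0%, with 23.0% in the pseudogene Gm11597 and 8.0% in Krt14. Gm11597 had 16 and 2 counts in the E-cadLO libraries of mice 67 and 70 and 0 in the other 6. How the counting treated reads that match several genes is not given in the sources used here, so the Krt16 counts are less certain than those of Krt17. For Krt8, 26.0% of windows occurred elsewhere, mainly in its pseudogene Krt8-ps (24.0%), and for Krt18 and Krt19 none did. For Krt6a and Krt6b the shares were 53.6% and 44.0%, in large part with each other, so that their low counts are uncertain too.

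Of the other keratins of stratified epithelia, Krt80, a type II keratin widely expressed in epithelia, was higher in E-cadLO cells in 4 of 4 mice, as were Krt16, Krt17 and Krt42 among the 12 tested and 16.8% of all genes. It had 3, 30, 6 and 2 counts in the E-cadHI libraries of mice 57, 58, 67 and 70 and 47, 28, 43 and 10 counts in the E-cadLO libraries. The groups overlapped through the E-cadHI library of mouse 58. The log2 fold change was 1.71 (SE 0.90, adjusted p = 0.411) without and 2.21 (SE 0.74, adjusted p = 0.19) with the replicate block (edgeR). Krt80 overlaps the antisense gene Gm35853, and whether the counting used strand is not given in the sources used here.

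Krt79, a type II keratin of the hair follicle opening, had the highest TPM of this class in each E-cadHI library (2.42 to 6.03 TPM). On the CPM scale it stood at 6.74, 4.75, 9.63 and 4.46 CPM in E-cadHI and 1.85, 3.71, 5.50 and 4.88 CPM in E-cadLO cells of mice 57, 58, 67 and 70. It was lower in E-cadLO cells in 3 of 4 mice, with a log2 fold change of -0.68 (SE 0.46, adjusted p = 0.491, edgeR). Krt222, a keratin-like gene without a class, was at 0 to 0.843 CPM in E-cadHI and at 0, 0.812, 1.21 and 3.97 CPM in E-cadLO cells of mice 57, 58, 67 and 70. Its log2 fold change of 2.23 (SE 1.35, adjusted p = 0.456, edgeR) did not pass.

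**Figure D4:**
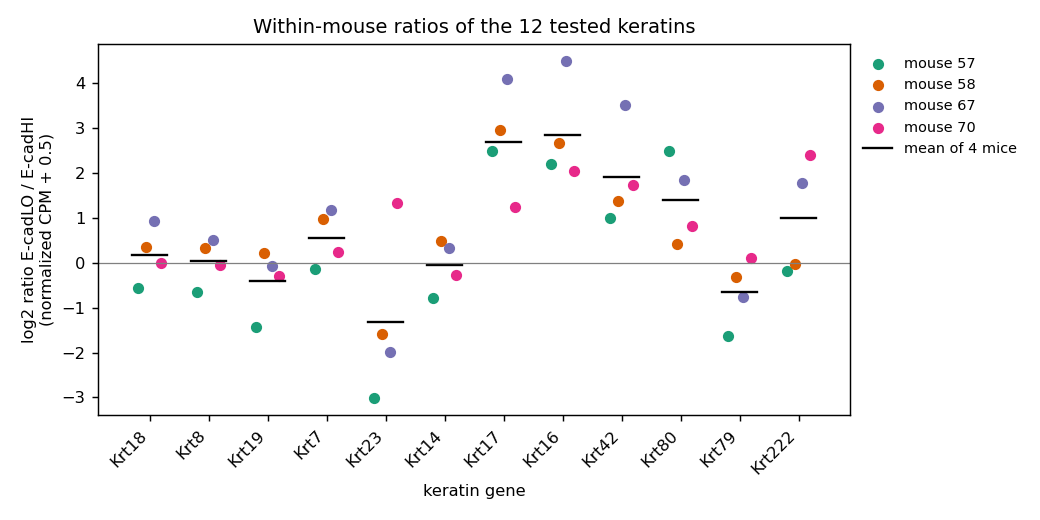
The vertical axis gives the log2 ratio of E-cadLO to E-cadHI on CPM plus 0.5 for the 12 tested keratins, with 1 colored point per mouse and a black line at the mean of the 4 mice. Krt17, Krt16, Krt42 and Krt80 are above 0 in all 4 mice, and the simple keratins and Krt14 lie on both sides of 0.

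Over the 12 tested keratins the median log2 fold change was 0.48 without and 0.37 with the block, beside 0.06 and 0.03 over all genes tested. This median is partly set by the filter on low counts, which Krt16 and Krt42 passed only through their E-cadLO libraries. By class, the summed CPM of the simple keratins had a mean log2 ratio within a mouse of 0.07 ± 0.58 (SD, n = 4), the basal keratins of -0.06 ± 0.58 (-0.68 without Krt14) and the stress-associated keratins of 2.74 ± 1.19. For the 14 keratins of stratified epithelia it was 0.69 ± 0.38, and it became 1.20 by TPM and 2.07 without the most abundant member. The simple and basal means were thus smaller than the spread between mice. The stress-associated ratio exceeded it in each mouse, at 2.51, 2.95, 4.19 and 1.32 in mice 57, 58, 67 and 70.

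Of the 41 keratins without a test, 10 reached 10 counts in at least 1 library, and 31 had at most 9 counts in any library. Krt10, the type I keratin of differentiating epidermis, had 0, 2, 2 and 17 counts in the E-cadHI libraries of mice 57, 58, 67 and 70 and 2, 2, 18 and 93 counts in the E-cadLO libraries, so that mouse 70 was highest in both. Its log2 ratios of 0.37, 0.16, 1.40 and 1.81 in these mice were above 0 in 4 of 4 mice, as in 16.8% of all genes tested. In mice 57 and 58, however, both libraries were below the floor, so that no direction can be read there. The higher level of Krt10 in E-cadLO cells thus rested on mice 67 and 70. Krt4, a type II keratin of oral and esophageal epithelium, had 135 counts in the E-cadLO library of mouse 57, and at most 8 in the others. Krt78, of the same class, had 11 counts in the E-cadLO library of mouse 58 and at most 4 elsewhere. The type I partner of Krt4 in esophagus, Krt13, and the epidermal Krt1 had under 10 counts in each library. The levels of Krt4 and Krt78 were thus carried by 1 library each.

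The 23 hair keratins were near the floor in both populations. Their counts together were 1 to 63 in E-cadHI and 24 to 64 in E-cadLO libraries. The log2 ratio of their summed CPM within a mouse varied in sign, at 3.20, -0.70, 2.31 and 0.92 in mice 57, 58, 67 and 70 (mean 1.44 ± 1.70, SD, n = 4). Only 4 of them reached 10 counts in any library. Krt25, of the inner root sheath, had 22 counts in the E-cadLO library of mouse 57. Among the hair shaft keratins, Krt86 had 25 counts in the E-cadLO library of mouse 67, Krt83 had 11 in that of mouse 57 and Krt87 had 10 in that of mouse 70. Krt88, which has no class here, reached 13 counts in the E-cadLO library of mouse 67. None of the 23 hair keratins had enough counts for the test over all genes, so a difference between the populations could not be assessed there at this depth.

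The genes that work with keratins were then described. Of 24 listed genes of desmosomes, hemidesmosomes and the plakins that anchor keratin filaments, 18 were tested and none was called with edgeR, without or with the block (median log2 fold change 0.05). The 4 most abundant were the desmosomal plakoglobin gene Jup (log2 fold change -0.37), the hemidesmosomal integrin gene Itga6 (-0.95) and the plakophilin genes Pkp4 (0.60) and Pkp3 (-0.02). In 3 of the 18, E-cadLO libraries were wholly above E-cadHI libraries, as in 3.9% of all genes: Dsp, which encodes desmoplakin, at 29.8 CPM ± 2.52 against 22.6 CPM ± 1.31, Dst (dystonin) and Tchp (trichoplein). Itga6 was the 1 wholly below, as were 4.2% of all genes, at 92.3 CPM ± 45.4 against 178 CPM ± 27.7. These genes were named after their values were seen, and their adjusted p values were 0.282 to 0.343 (edgeR). DESeq2 with the block called 1 of the 18 lower, Itga6 (adjusted p = 0.0123), and 0 higher, where it called 1.51% and 7.19% of all genes.

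Other intermediate filament genes had mostly positive log2 fold changes, 11 of 12 tested, with a median of 1.33 beside 0.06 over all genes tested. Among the 11 were the neuronal filament genes Nefl (1.94), Nefm (1.79), Nefh (1.88) and Ina (1.57), named after their values were seen. These had at most 2 counts in either library of mouse 57. Gfap, the astrocyte filament, was the 1 called higher with the replicate block, where 0.728% of all genes were (log2 fold change 2.0, SE 0.30, adjusted p = 0.036, edgeR). DESeq2 with the block called 3 higher (Gfap, Nefl and Ina) and 0 lower, where it called 7.19% and 1.51% of all genes. Vim, which encodes vimentin, was at 58.2 CPM ± 14.6 in E-cadHI and 108 CPM ± 102 in E-cadLO cells. Its ratio was 2.56 on the log2 scale in mouse 57 and 0.45, -0.82 and -0.09 in mice 58, 67 and 70, so that the mean rested on 1 mouse. The nuclear lamin gene Lmna (log2 fold change 0.17) and Nes, which encodes nestin (0.63), did not pass either.

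Of 27 listed genes of keratinization, such as cornified envelope proteins and transglutaminases, 25 were in the table and 8 were tested, and none was called with edgeR (median log2 fold change 0.06). Sfn (-0.11), Dmkn (-0.80), Tgm1 (0.09) and Lypd3 (-0.14) were the most abundant. DESeq2 with the block called 1 of the 8 lower, Dmkn (adjusted p = 0.0368), and 0 higher, where it called 1.51% and 7.19% of all genes. Loricrin (Lor) and involucrin (Ivl), which mark terminal differentiation of epidermis, had at most 1 and 4 counts in any library, and Lce3a and Sprr2h had none. Cst6, a cystatin of cornifying epithelia, was the 1 of these 8 tested genes with E-cadLO wholly above E-cadHI libraries (3.9% of all genes were), at 3.08 CPM ± 0.404 against 1.17 CPM ± 0.278 (adjusted p = 0.289 without the block, edgeR), and was named after its values were seen.

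Of 24 transcription factors known for control of keratin genes or epithelial fate, 17 were tested and none was called with edgeR (median log2 fold change 0.29). DESeq2 with the block called 1 of the 17 higher (Ovol1) and 2 lower (Gata3, Elf5), where it called 7.19% and 1.51% of all genes. Ovol1 and Elf5 were named after their values were seen. The 4 most abundant had log2 fold changes below 0, at -0.66 for Ehf, -0.70 for Gata3, -0.51 for Grhl1 and -0.62 for Tfap2c. Tfap2c was the 1 of the 17 wholly lower in E-cadLO libraries (adjusted p = 0.296, edgeR; 4.2% of all genes were). Klf4, a barrier factor of skin, was the 1 wholly higher (3.9% of all genes were), at 3.32 CPM ± 1.53 against 1.04 CPM ± 0.476 (adjusted p = 0.298, edgeR), and was named after its values were seen. Hoxc13, a factor of hair keratin genes, had no counts in any library.

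Many markers of brain cells moved in the same direction as Krt16 and Krt17. In edgeR with the replicate block, which called 0.728% of all genes higher and 0.0% lower, 6 of 20 microglial, 5 of 16 astrocyte, 2 of 14 oligodendrocyte, 3 of 13 neuronal and 1 of 5 choroid plexus or ependymal genes tested were called higher in E-cadLO cells and none lower. Among them were Cx3cr1 of microglia (log2 fold change 2.63), Ntsr2 of astrocytes (2.01) and Ttr of choroid plexus (2.77). The other choroid plexus or ependymal genes were mixed, with 2 of the 5 tested below 0, and their summed level was lower in E-cadLO cells in 3 of 4 mice (log2 ratios -2.65, -0.09, -0.67 and 0.84 in mice 57, 58, 67 and 70). None of 10 endothelial and 8 fibroblast genes was called by edgeR. DESeq2 with the block called 17 microglial, 11 astrocyte, 9 oligodendrocyte, 9 neuronal, 1 endothelial, 2 fibroblast and 1 choroid plexus gene (Ttr) higher, and 1 choroid plexus gene (Folr1, named after its values were seen) lower. The summed astrocyte level was 1186 to 4967 CPM in E-cadHI and 794 to 14862 CPM in E-cadLO libraries, and the oligodendrocyte level 617 to 8769 CPM and 1351 to 34872 CPM. Both were highest in the E-cadLO library of mouse 70. The fibroblast level was 28.2 to 56.2 CPM in the E-cadLO libraries of mice 58, 67 and 70 and 1927 CPM in that of mouse 57. The neuronal level was 13.3 to 361 CPM against 90.8 to 923 CPM, the endothelial 264 to 352 CPM against 235 to 557 CPM and the choroid plexus or ependymal level 245 to 651 CPM against 76.7 to 1170 CPM. The part of these cells in the keratin results was not tested.

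Of 12 myoepithelial genes, which include Krt5, Krt14 and Krt17 themselves, 7 were tested (median log2 fold change 1.40), and edgeR with the block called 1, Krt17. DESeq2 with the block called Krt17 and Cav1 higher and Oxtr lower. Krt17, Cav1 and Tagln were wholly above E-cadHI in E-cadLO libraries (3.9% of all genes were), and Cav1, Oxtr and Tagln were named after their values were seen. The summed level of the 12, keratins included, had log2 ratios within a mouse of 0.90, 1.09, 1.21 and 0.13 in mice 57, 58, 67 and 70. Of the contractile genes, Acta2 (smooth muscle actin) averaged 0.605 CPM in E-cadHI and 2.73 CPM in E-cadLO cells, and Cnn1 and Actg2 stayed under 1 CPM on average in both.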

How the data were processed

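E-cadHI and E-cadLO tumor cells from BCBMs of 4 mice were sequenced as 8 mRNA libraries (65-base single reads). The authors mapped reads with HISAT2 2.1.0 to GRCm38 and deposited raw whole-number counts per gene, made with Icount according to the methods and HTSeq according to the submitters' processing notes. The use of strand and of reads that match several genes is not given in the sources used here. Entries without an identifier (365 of 32259, 0.0636% to 0.0954% of counts) were left out. The remaining counts were tested with edgeR 4.0.16 (R 4.3.3, TMM, filterByExpr by condition, quasi-likelihood test, Benjamini-Hochberg adjustment over 13598 genes, threshold 0.05). This step was tested on simulated data that held no differences between mice. The simulation thus does not check the fit without the block where mice differ. CPM are TMM-normalized, TPM use GENCODE M21 exon lengths, and ratios within a mouse use CPM plus 0.5. The floor of 3 counts covers counting error only, since PCR copies are not independent molecules.

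The main fit leaves the mouse out, as the methods name DESeq2 and no block. The 2 populations of a mouse come from the same animal by the labels, and deviated together from their group means (correlations over genes 0.352, 0.275, 0.309 and 0.698 for mice 57, 58, 67 and 70), so a fit that adds the mouse (replicate block) accompanies it. Alternatives were DESeq2 1.42.0 without and with the block, its size factors in edgeR, no filter, at least 10 counts in every library, a robust fit, omission of Gm42418 and mitochondrial genes, each mouse left out, another pseudocount (2), CPM without TMM, and class totals by TPM or without their most abundant member.

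Keratins that passed the filter were named with values, the others if a library held at least 10 counts. Of each gene list, genes past the threshold or the 4 most abundant were named, with exceptions stated. The members were taken by the rule on name and biotype, and the classes and lists were written by hand. The rule, classes and lists were chosen with earlier results of these data known. Sequence sharing counts each distinct 65-base window of a gene's GENCODE M21 transcripts found, on either strand, in a transcript of another gene. Tables and figures were made with Python 3.11, pandas 2.3 and matplotlib 3.10.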

Additional observations from a re-analysis of the deposited data

Results flagged for a closer look

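In 44 groups of 4 values (the CPM of the 12 tested keratins in each population, their ratios within a mouse and the class sums), 3 values lay far from the other 3 of their group, where chance gives about 1 group in 20 (2.2 groups). The E-cadLO library of mouse 67 stood apart for Krt16, at 44.2 CPM against 2.44 to 5.10 CPM in the other E-cadLO libraries, and for Krt42, at 6.04 CPM against 1.19 to 1.97 CPM. The E-cadHI library of mouse 58 stood apart for Krt80, at 2.30 CPM against 0.175 to 0.445 CPM in the other E-cadHI libraries.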

How the results depend on the processing

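No keratin and no other gene passed without the block in edgeR with TMM, with DESeq2's size factors, with at least 10 counts in every library (which left Krt16, Krt42, Krt80 and others untested), with the robust fit or without Gm42418 and mitochondrial genes. With the replicate block, edgeR called 99 genes higher and 2 keratins, Krt16 and Krt17. DESeq2 called 386 genes higher and 43 lower with 2 keratins (Krt17, Krt42; Krt16 was given no p), and with the replicate block 1031 higher and 216 lower with 3 keratins (Krt16, Krt17, Krt42). Without a filter edgeR called 23 genes higher, of which 1 was a keratin (Krt17). When each mouse was left out with the replicate block, 0 to 425 genes (63 without mouse 58) were called higher, 0 to 24 lower and 0 to 2 keratins higher; without the block none was called. No keratin was called lower under any of these. The causes of these differences in count were not tested. The log2 fold changes of Krt16, Krt17 and Krt42 kept their sign throughout, from 3.66 to 4.68, 2.29 to 3.25 and 2.32 to 4.00.

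Values near 0 changed sign. Krt14 became 0.0021 with DESeq2, 0.0096 with its size factors, 0.047 with at least 10 counts in every library and 0.0099 without Gm42418 and mitochondrial genes, and ranged from -0.23 to 0.21 over all fits, with 0.21 and 0.16 without mouse 57 and 0.06 and 0.028 without mouse 70 (without and with the block). Without mouse 67, Krt18 became -0.077 and -0.064 and Krt8 -0.11 and -0.12, and Krt8 -0.050 with the block without mouse 58. Over the mice left out, Krt14 without the block ranged from -0.17 to 0.21, Krt18 from -0.077 to 0.48 and Krt8 from -0.11 to 0.28. For class totals, the mean log2 ratio of simple keratins became -0.022 without the most abundant member. That of basal keratins became 0.0041 by TPM and -0.68 without Krt14, and that of stratified keratins 1.20 by TPM and 2.07 without the most abundant member. A count of 3 limits most hair keratins, and none of them had enough counts for the main test at this depth.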
